A study of Danio rerio with 3 samples.

Results

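Complement, coagulation and plasma serpin genes code for the defence and clotting proteins of the blood. They were chosen by name, as every mRNA entry named for a complement component or complement factor, a MASP or mannose-binding protein, a numbered coagulation factor, a fibrinogen chain, plasminogen, kininogen, protein C, von Willebrand factor or a serpin of the a, c, d and f classes. The name rule found 44 of the 19814 named mRNA genes, in a table of 21098 entries. In each comparison all 44 reached 10 normalized counts in 1 of the libraries or in both, so none was lost to the filter on low values.

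The study asked how BDE47, a tetrabrominated diphenyl ether flame retardant, changes gene expression in developing zebrafish. Wild-type Tuebingen embryos were exposed from a few hours after fertilization until 6 days post-fertilization (dpf), and RNA of whole larvae, pooled within a treatment, was sequenced. The 3 groups used here were 6 dpf larvae in DMSO vehicle, in 5 μg/L BDE47 (the low dose) and in 500 μg/L BDE47 (the high dose). All 3 received the same share of DMSO in the medium. The paper also describes a blank control without vehicle, which was not used here. Each group was 1 library from 1 pool, so the sequencing gives no replicate check and no test of the exposure can be made from it. The paper also ran RT-qPCR on 3 batches of larvae for selected genes at the high dose. These included fetub and opn1sw1, used below only as markers of hepatocytes and eye, and both were lower there as well. None of the complement, coagulation and serpin genes chosen by name was among the genes it selected. For genes lower at both doses, however, the paper lists alternative-pathway complement activation and extrinsic blood coagulation among the most enriched annotation terms. That enrichment was not recomputed here.

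Complement is a chain of plasma proteases and their substrates. It is started by C1q on antibodies, by the MASP proteases on sugars or by C3 itself, it converges on C3, and it ends in a pore built from C6, C8, C9 and their partners. In coagulation, tissue factor and factor VII activate factor X, factor X with factor V makes thrombin, and thrombin turns fibrinogen into fibrin, which plasmin dissolves. Serpins are suicide inhibitors of such proteases, and hepatocytes make most of these proteins, whereas tissue factor sits on cell surfaces and C1q comes mainly from macrophages in mammals.

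The libraries held 41474296 reads in vehicle, 30463582 at the low dose and 27004647 at the high dose over all entries. The 44 genes took 0.647%, 0.533% and 0.563% of the reads on named mRNA genes, respectively. Their reads per gene ranged from 41 to 34006 in vehicle (median 1275), from 10 to 27672 at the low dose (median 796) and from 13 to 17041 at the high dose (median 601). One read was worth 0.790, 1.09 and 1.25 normalized counts, respectively. A fold change (FC) below is the ratio of normalized counts between a pair of libraries, and its 95% confidence interval (CI) was derived from the split of the reads of the gene between them by the exact Clopper-Pearson method. Without molecular identifiers such intervals cover counting error only. A gene was counted as changed at an FC of at least 2, or at most 0.5, provided that the higher of both values was at least 10 normalized counts. Transcript lengths were not used, so each gene is compared with itself across libraries. As whole larvae were pooled, fewer cells of a type and less RNA per cell cannot be told apart.

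**Figure D1:**
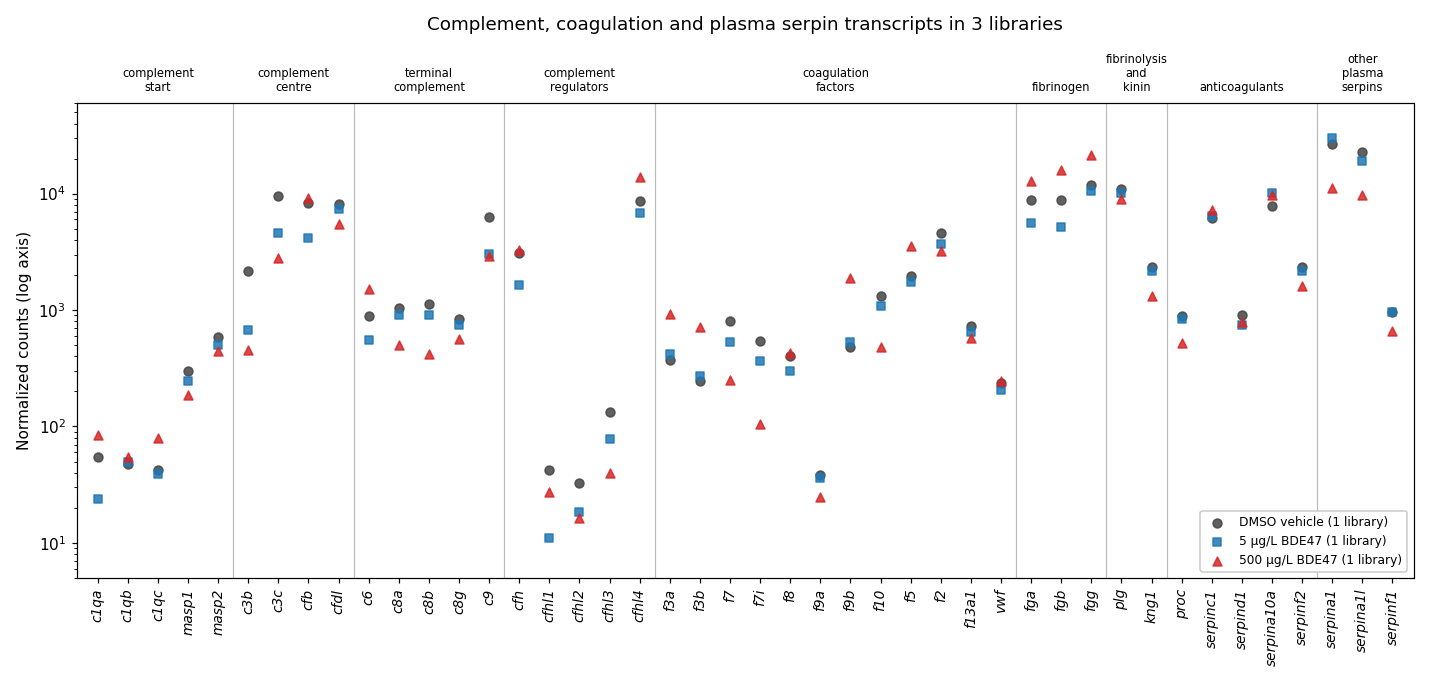
Normalized counts (log axis) of the 44 genes in the library of vehicle, of the low dose (5 μg/L BDE47) and of the high dose (500 μg/L BDE47), grouped by role; each symbol is 1 library. The symbols of c3b, c3c, f7, f7i and f10 step down from vehicle to the high dose, while f3a, f3b and f9b have their highest symbol at the high dose.

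At the high dose against vehicle, 3 genes rose, f3a, f3b and f9b, and 11 fell, c3b, c3c, c8a, c8b, c9, cfhl3, f7, f7i, f10, serpina1 and serpina1l. The risers were 6.82% and the fallers 25% of the 44 genes, 31.8% in either direction. Of all 17758 genes tested, 7.40% were called higher, 4.74% lower and 12.1% in either direction. Thus the share that fell was above that of all genes, and the share that rose was close to it. The median log2 FC of the 44 genes (pseudocount 1) was -0.46, against -0.02 over all genes tested. The ratio was below 1 for 26 genes (59.1%) and above 1 for 18, where 51.1% of all genes tested had a ratio below 1. The CI lay wholly below 1 for 24 genes, wholly above 1 for 15, and held 1 for 5.

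At the low dose, 0 of the 44 genes rose and 5 fell, c1qa, c3b, c3c, c9 and cfhl1, which is 11.4% of them. Over the 17670 genes tested, 0.951% were called higher, 1.97% lower and 2.92% in either direction. The median log2 FC was -0.24, against 0.01 over all genes. Here 36 of the 44 ratios (81.8%) were below 1, against 48.8% over all genes tested. The CI lay below 1 for 31 genes, above 1 for 3 and on both sides for 10. This comparison and the one at the high dose share the vehicle library, so their values are given side by side only.

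The direct comparison of the high with the low dose does not use the vehicle library. It reuses both exposed libraries of the comparisons above, however, so it is not independent of them. In it 13 genes were higher at the high dose, c1qa, c1qc, cfb, c6, cfhl1, cfhl4, f3a, f3b, f9b, f5, fga, fgb and fgg. Another 5 were lower, c8b, f7, f7i, f10 and serpina1. The shares were 29.5% higher, 11.4% lower and 40.9% in either direction, where all 17707 genes tested gave 7.39%, 4.10% and 11.5%. The median log2 FC was -0.16, against -0.01 over all genes tested. With edgeR's exact test, which needs an assumed spread between pools where there are no replicates, a biological coefficient of variation (BCV) of 0.2 left f3b, f9b, c3b, c3c, c8b, cfhl3, f7, f7i and f10 called at the high dose, 0 of the 5 at the low dose, and c1qa, c6, f3b, f9b, fgb, f7i and serpina1 between the doses. With a BCV of 0.4 it called 0 of the 44 genes in each comparison, so what passes depends on a spread that was not measured. Over all genes, a BCV of 0.2 called 693 at the high dose, 5 at the low dose and 594 between the doses. A BCV of 0.4 called 20, 0 and 29, respectively. Thus 0 of the 44 genes at the low dose, or at a BCV of 0.4, is near the share of all genes.

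**Figure D2:**
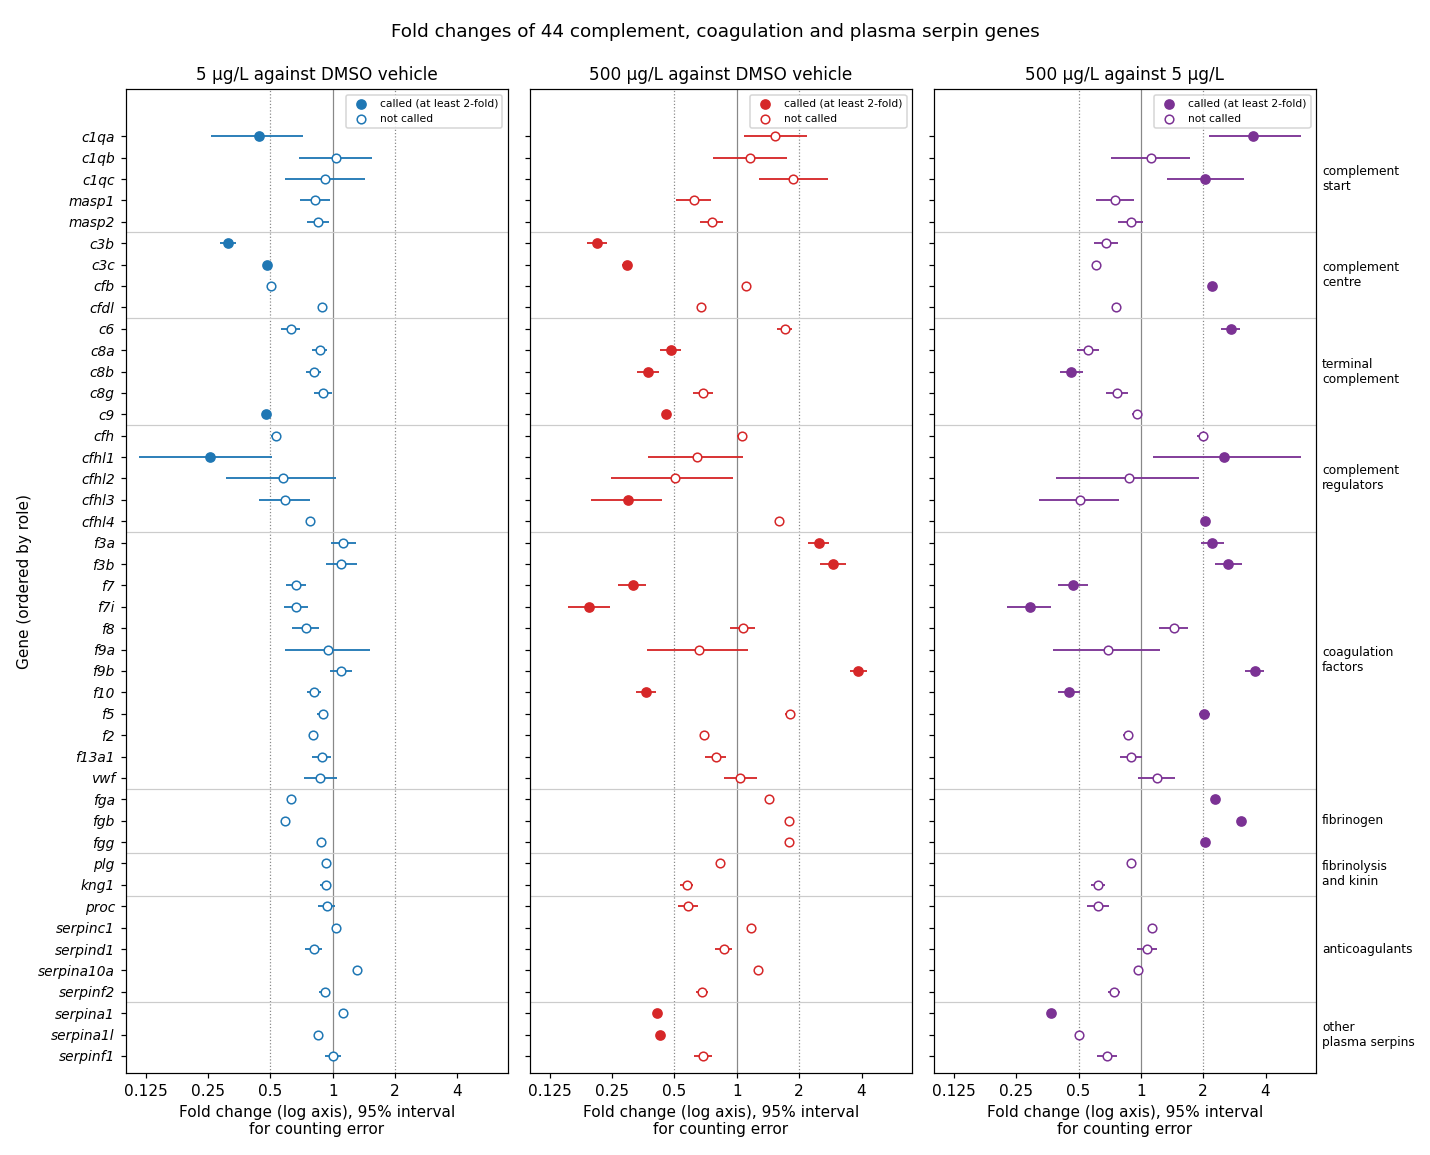
FC (log axis) of each of the 44 genes at the low dose against vehicle, at the high dose against vehicle and at the high against the low dose; bars are 95% CIs for counting error, filled symbols changed at least 2-fold and open symbols did not. At the low dose the 5 filled symbols are all complement genes, and at the high dose the range runs from 0.194 for f7i to 3.87 for f9b.

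By role, all 5 genes that fell at the low dose were among the 19 complement genes, where 1.97% of all genes fell. Of these 19, 18 had a ratio below 1, against 48.8% of all genes, and the median log2 FC was -0.67. The complement median at the high dose was -0.57, with 6 genes lower and 0 higher, where all genes gave 4.74% lower and 7.40% higher, so that 0 of 19 higher is near the share of all genes. The 25 coagulation, fibrinolysis and serpin genes had a median of -0.16 at the low dose, with 0 genes changed in either direction, which is near the 2.92% of all genes. Their median at the high dose was -0.27, with 3 higher and 5 lower. The difference between these groups of genes was not tested.

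The C1q subunits, which recognise bound antibody, were counted by few reads. The gene c1qa had 54.5 normalized counts in vehicle (69 reads), 24.0 at the low dose (22 reads) and 83.7 at the high dose (67 reads). It was lowest at the low dose, with an FC of 0.441 (95% CI 0.260 to 0.722), and at the high dose its FC was 1.53 (95% CI 1.08 to 2.18). The gene c1qc had 42.7, 39.4 and 80.0 normalized counts, respectively, and so was highest at the high dose (95% CI 1.28 to 2.74 for an FC of 1.87). Its partner c1qb, with 47.4, 49.2 and 55.0 normalized counts, differed at both doses by less than counting error. C1q is assembled from all 3 subunits, yet at the low dose the FC was 0.441 for c1qa, 1.04 for c1qb and 0.922 for c1qc.

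Beside C1q, 6 of 10 listed macrophage markers were in the table, with summed normalized counts of 5144 in vehicle, 3333 at the low dose and 4921 at the high dose, and 0 of the 6 were at 0 in any library. Their FCs ran from 0.320 to 0.901 at the low dose and from 0.542 to 1.40 at the high dose. Of these markers mfap4 fell at the low dose (FC 0.320), where 1.97% of all genes fell. Their part in the C1q values was not tested.

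The MASP proteases start complement on sugar surfaces through the lectin pathway. For masp1 the level was 299 normalized counts in vehicle, 246 at the low dose and 185 at the high dose, and for masp2 it was 586, 497 and 443. Both were highest in vehicle and lowest at the high dose, with FCs at the high dose of 0.619 (95% CI 0.508 to 0.750) and 0.756 (95% CI 0.664 to 0.859), short of 2-fold.

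C3 is the protein on which all routes of complement meet, and its gene c3b gave the lowest ratio of the complement genes at the high dose. Its level was 2159 normalized counts in vehicle (2732 reads), 674 at the low dose (617 reads) and 457 at the high dose (366 reads). The FC was 0.312 (95% CI 0.286 to 0.341) at the low dose and 0.212 (95% CI 0.189 to 0.236) at the high dose. The other C3 gene among those chosen by name, c3c, had 9614 normalized counts in vehicle, 4624 at the low dose and 2823 at the high dose. Its FCs were 0.481 (95% CI 0.464 to 0.498) and 0.294 (95% CI 0.281 to 0.307), respectively. Both copies fell at both doses, and both were lower at the high than at the low dose, with direct ratios of 0.678 (95% CI 0.594 to 0.773) for c3b and 0.611 (95% CI 0.580 to 0.643) for c3c. The FC of c3b was 0.649 times that of c3c at the low dose (95% CI 0.591 to 0.714) and 0.721 times at the high dose (95% CI 0.641 to 0.811). Reads of near-identical copies, such as those of c3, serpina1, f7, f9 and cfh, may have been split between them by the counting.

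Factor B and factor D form the amplification loop of complement. The factor B gene cfb had 8268 normalized counts in vehicle, 4149.7 at the low dose and 9181 at the high dose. It was lowest at the low dose, where the FC of 0.502 (95% CI 0.483 to 0.521) lay just outside the threshold, and at the high dose the FC was 1.11 (95% CI 1.08 to 1.14). Between the exposed libraries cfb was higher at the high dose, with a ratio of 2.21 (95% CI 2.13 to 2.30). The factor D-like gene cfdl, for the protease that cleaves factor B, stepped down instead, with 8219, 7332 and 5538 normalized counts, and did not reach 2-fold (FC 0.674 at the high dose).

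Of the terminal genes, whose products form the membrane pore, 3 of 5 fell at the high dose, where 4.74% of all genes fell. They were c8a, c8b and c9, of which edgeR at an assumed BCV of 0.2 kept c8b only. The level of c9, for the subunit that polymerises into the ring of the pore, was 6357 normalized counts in vehicle, 3026 at the low dose and 2889 at the high dose. Both exposed libraries were thus at a like level, with FCs of 0.476 (95% CI 0.456 to 0.497) and 0.455 (95% CI 0.434 to 0.476) and a ratio between them of 0.955 (95% CI 0.903 to 1.01).

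C8 joins the pore before C9 and has 3 chains. The gene c8a had 1049, 906 and 502 normalized counts in vehicle, the low dose and the high dose, respectively, and c8b had 1129, 912 and 421. Their FCs at the low dose were 0.864 and 0.808, and both fell at the high dose, with FCs of 0.479 (95% CI 0.427 to 0.536) for c8a, close to the threshold, and 0.373 (95% CI 0.330 to 0.420) for c8b. The chain gene c8g, with 829.9, 744 and 569.6 normalized counts, was also lowest at the high dose, at an FC of 0.686 (95% CI 0.614 to 0.767).

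The gene c6, whose product starts the pore together with C5, ran the other way. It had 888 normalized counts in vehicle, 558 at the low dose and 1514 at the high dose. It was lowest at the low dose and highest at the high dose, with FCs of 0.628 (95% CI 0.565 to 0.698) and 1.71 (95% CI 1.57 to 1.85), and the ratio between the exposed libraries was 2.72 (95% CI 2.45 to 3.02).

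Factor H protects host cells from C3, and 5 genes carried its name. The gene cfh had 3089 normalized counts in vehicle, 1644 at the low dose and 3268 at the high dose, that is, lowest at the low dose with an FC of 0.532 (95% CI 0.501 to 0.565) and at about the vehicle level at the high dose. The gene cfhl4, for which the deposited table names the matrix gene SVEP1 as the human match, had 8724, 6793 and 13931, with an FC of 1.60 (95% CI 1.56 to 1.64) at the high dose. The other 3 were thinly counted. For cfhl3 the level was 134, 78.7 and 40.0 normalized counts, and it fell at the high dose (FC 0.298, 95% CI 0.197 to 0.436). For cfhl1 there were 54, 10 and 22 reads, and it fell at the low dose (FC 0.256, 95% CI 0.116 to 0.508). With 41, 17 and 13 reads, cfhl2 was highest in vehicle, and its FC of 0.501 at the high dose lay just outside the threshold (95% CI 0.246 to 0.954).

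Among coagulation factors, the genes at the start of the cascade moved in opposite directions at the high dose. Tissue factor is the cell surface receptor for factor VII and has a pair of genes in zebrafish. The level of f3a was 375 normalized counts in vehicle, 422 at the low dose and 933 at the high dose, and that of f3b was 245, 270.0 and 712. Only the library of the high dose stood apart, with FCs of 2.49 (95% CI 2.22 to 2.80) for f3a and 2.91 (95% CI 2.53 to 3.35) for f3b. The CIs of both held 1 at the low dose. The FC of f3b was 1.17 times that of f3a at the high dose (95% CI 0.975 to 1.40), so the copies differed by less than counting error.

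Factor VII, the plasma protease that tissue factor binds, is coded by f7, and f7i codes for a related protein that inhibits this step in zebrafish. There were 799.9 normalized counts of f7 in vehicle (1012 reads), 532 at the low dose (487 reads) and 251 at the high dose (201 reads). For f7i there were 541 (685 reads), 362 (331 reads) and 105 (84 reads), respectively. Both genes stepped down in the same order. At the low dose they had nearly the same FC, 0.666 (95% CI 0.596 to 0.742) for f7 and 0.668 (95% CI 0.584 to 0.763) for f7i. At the high dose both fell, f7 to an FC of 0.314 (95% CI 0.268 to 0.366) and f7i to 0.194 (95% CI 0.153 to 0.243), the lowest of the 44 genes. The FC of f7i was 0.617 times that of f7 at the high dose (95% CI 0.470 to 0.811) and 1.00 times at the low dose (95% CI 0.847 to 1.19).

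Factor X is activated by factor VII and makes thrombin. Its gene f10 had 1332 normalized counts in vehicle, 1079 at the low dose and 486 at the high dose. The level at the high dose was the lowest, with an FC of 0.365 (95% CI 0.326 to 0.408), and the FC at the low dose was 0.810 (95% CI 0.748 to 0.877). For f2, the prothrombin gene, the counts were 4591, 3682 and 3189, the same order at a smaller size (FC 0.695 at the high dose, 95% CI 0.663 to 0.728).

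Factor IX is the protease of the amplifying arm of coagulation and has a pair of genes as well. The gene f9b had 486 normalized counts in vehicle (615 reads), 531 at the low dose (486 reads) and 1879 at the high dose (1504 reads). It was at a like level in vehicle and at the low dose (FC 1.09, 95% CI 0.968 to 1.23) and rose at the high dose to an FC of 3.87 (95% CI 3.52 to 4.25), the highest of the 44 genes. Its copy f9a was counted by 48, 33 and 20 reads, respectively. Its FC at the high dose was 0.659 (95% CI 0.370 to 1.13), within counting error of 1. The FC of f9b was 5.87 times that of f9a at the high dose (95% CI 3.45 to 9.97), and 1.15 times at the low dose (95% CI 0.726 to 1.82).

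The genes of the cofactors and of vwf followed other orders. The gene f5, for the cofactor of factor X, had 1954 normalized counts in vehicle, 1746 at the low dose and 3529 at the high dose, the last being the highest, with an FC of 1.81 (95% CI 1.71 to 1.91) against vehicle and of 2.02 (95% CI 1.90 to 2.15) against the low dose. The cofactor of factor IX, f8, had 402, 298 and 429.7, and was lowest at the low dose (FC 0.743, 95% CI 0.639 to 0.863). Its carrier in plasma, vwf, which endothelial cells make, had 236, 206 and 245, differences within counting error. The fibrin cross-linking enzyme gene f13a1 stepped down from 733 to 647 and 578 normalized counts, short of 2-fold.

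Fibrinogen is built from 3 chains, and all 3 chain genes were lowest at the low dose and highest at the high dose. The level of fga was 8887 normalized counts in vehicle, 5608 at the low dose and 12746 at the high dose. That of fgb was 8848, 5201 and 15830.2, and that of fgg was 11929, 10438 and 21288. Against vehicle 0 of 3 reached 2-fold at either dose, which is near the 2.92% of all genes at the low dose and 12.1% at the high dose. The FCs at the low dose were 0.631 for fga, 0.588 for fgb and 0.875 for fgg. At the high dose they were 1.43, 1.79 and 1.78, respectively. All 3 were higher at the high than at the low dose, by ratios of 2.27 (95% CI 2.20 to 2.35), 3.04 (95% CI 2.94 to 3.15) and 2.04 (95% CI 1.99 to 2.09). The same order, lowest at the low dose and highest at the high dose, was seen in 12 of the 44 genes, the others being c1qa, c1qc, cfb, c6, cfh, cfhl4, f8, f5 and vwf. The most frequent order, highest in vehicle and lowest at the high dose, was seen in 22. Orders were read from the values without regard to counting error. For vwf among the 12 and f9a among the 22, the CI held 1 in each comparison. Some others had a CI that held 1 in a comparison, such as f8 at the high dose (0.931 to 1.23). The shares of these orders over all genes were not computed, so these counts have no background beside them.

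Plasminogen is the precursor of plasmin, which dissolves fibrin, and kininogen is the source of bradykinin. The plasminogen gene plg had 10879.8 normalized counts in vehicle, 10083 at the low dose and 9051 at the high dose, and kng1 had 2328, 2150.3 and 1332. Both were lowest at the high dose without reaching 2-fold, at FCs of 0.832 (95% CI 0.808 to 0.856) and 0.572 (95% CI 0.533 to 0.614).

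None of the 5 genes grouped as anticoagulants changed 2-fold at either dose. Of all genes tested, 2.92% did at the low dose and 12.1% at the high dose, so 0 of 5 is near these shares. Antithrombin, coded by serpinc1, inhibits thrombin and factor X, and its gene had 6175 normalized counts in vehicle, 6418 at the low dose and 7244 at the high dose. The gene serpina10a, for the inhibitor that acts with protein Z, had 7770.4, 10153 and 9783. Its FC of 1.31 (95% CI 1.27 to 1.34) was the highest of the 44 genes at the low dose, and at the high dose it was 1.26 (95% CI 1.22 to 1.30). For proc, the gene of protein C, which switches off factors V and VIII, the counts were 893, 834 and 518, lowest at the high dose (FC 0.580, 95% CI 0.517 to 0.650). For serpind1, heparin cofactor II, the FC was 0.810 at the low dose and 0.864 at the high dose. The group also held serpinf2, whose product inhibits plasmin rather than a clotting protease, with FCs of 0.914 and 0.678.

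Of the remaining serpins, the copies of alpha-1-antitrypsin, an inhibitor of neutrophil elastase, fell at the high dose. The gene serpina1 had 26878 normalized counts in vehicle, 30250.2 at the low dose and 11123 at the high dose, and serpina1l had 22655, 19207 and 9660.2. Both were at their lowest at the high dose, with FCs of 0.414 (95% CI 0.404 to 0.424) and 0.426 (95% CI 0.416 to 0.437), and the ratio of these FCs was 0.971 (95% CI 0.938 to 1.00). At the low dose the copies parted, with FCs of 1.13 (95% CI 1.11 to 1.14) and 0.848 (95% CI 0.832 to 0.864), a ratio of 1.33 (95% CI 1.30 to 1.36). Of the reads of both copies, serpina1 held 54.3% in vehicle (95% CI 53.9 to 54.7), 61.2% at the low dose (95% CI 60.7 to 61.6) and 53.5% at the high dose (95% CI 52.8 to 54.3). The gene serpinf1, for the pigment epithelium-derived factor, which inhibits no protease, had an FC of 1.00 at the low dose and 0.686 (95% CI 0.618 to 0.760) at the high dose.

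Many of these genes lie side by side in the genome. In the order of protein-coding genes in RefSeq (assembly GRCz12tu, used for names and neighbours only), 21 of the 44 genes fell into 8 groups with at most 1 gene between neighbours. At the high dose the lowest and highest FC of a group were 0.194 and 0.365 for f7, f7i and f10, 0.212 and 0.294 for c3b and c3c, 0.373 and 0.479 for c8a and c8b, and 1.43 and 1.79 for fgb and fga. They were 0.414 and 0.426 for serpina1 and serpina1l, and 0.678 and 0.686 for serpinf2 and serpinf1. The genes of C1q ran from 1.16 to 1.87. Thus at the high dose all ratios lay on the same side of 1 within 7 of the groups, though the CI of c1qb held 1 (0.767 to 1.74). This was not tested against other neighbours. The factor H genes were the exception at that dose. In the order cfhl4, cfh, cfhl1, cfhl2 and cfhl3 the FC went from 1.60 through 1.06, 0.644 and 0.501 to 0.298. The FC of cfhl4 was 5.37 times that of cfhl3 (95% CI 3.68 to 7.84). The low dose gave other sides. There the factor H genes all lay below 1, from 0.256 to 0.779. The FCs of serpina1l and serpina1 were 0.848 and 1.13, and those of the C1q genes ran from 0.441 to 1.04.

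**Figure D3:**
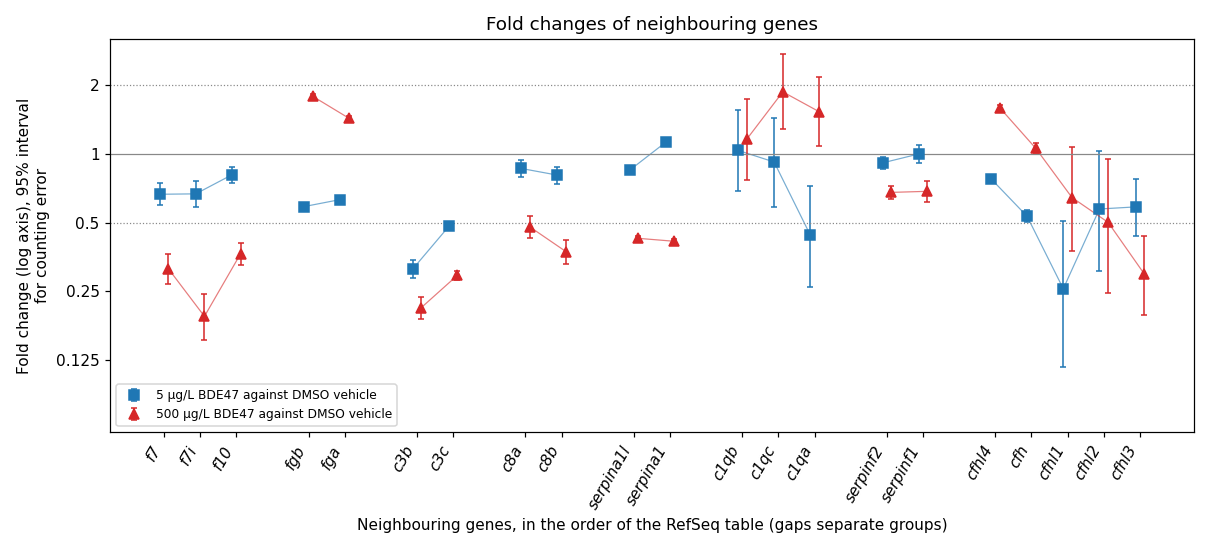
FC (log axis) against vehicle at both doses for the 21 genes that neighbour another of the 44 in the RefSeq gene order; lines join neighbours and bars are 95% CIs for counting error. The factor VII and X genes lie between 0.194 and 0.365 at the high dose, whereas the factor H genes spread from 0.298 to 1.60.

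Hepatocytes are the known source of most of these proteins, so 12 hepatocyte markers were set beside them, of which 10 were in the table and 0 at 0 in any library. Their summed normalized counts were 315541 in vehicle, 308007 at the low dose and 231527 at the high dose. Without fetub, the most abundant in vehicle, they were 218806, 218227 and 207151. That remainder mixed falls and rises from vehicle to the high dose. It held falls such as those of fabp10a (43714 to 17265.5) and tfa (56022 to 39573). It also held the rises of tat (23577 to 48761) and rbp4 (81410 to 97208). The median log2 FC of the markers was -1.16 at the high dose and -0.07 at the low dose. Of the 10, 5 fell at the high dose, fabp10a (FC 0.395), fetub (0.252), gc (0.166), ahsg (0.310) and cp (0.263). Another 2 rose, tat (2.07) and hpx (3.83, with 59 reads in vehicle), while ttr (0.506), tfa (0.706) and rbp4 (1.19) did not reach 2-fold. Of all genes tested, 4.74% fell and 7.40% rose at that dose. Only cp fell at the low dose (FC 0.374), where 1.97% of all genes fell. Against fabp10a, the gene of the liver fatty acid binding protein, 7 of the 44 genes had a lower FC at the high dose, c3b, c3c, c8b, cfhl3, f7, f7i and f10, and 37 had a higher one. Against fetub, c3b and f7i were lower and 42 were higher. Other markers gave other counts, with 22 lower and 22 higher against tfa, and 32 lower and 12 higher against rbp4. At the low dose 21 were lower against fabp10a, 34 against fetub, 14 against tfa and 43 against rbp4. These counts thus depend on the marker chosen. The part of hepatocyte number or content in the values of the 44 genes was not tested.

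Markers of blood and vessel cells had other ranges. The summed counts of 5 of 5 genes listed as neutrophil markers were 85023 in vehicle, 92195 at the low dose and 54417 at the high dose. However, cpa5 alone held 93.2%, 94.95% and 85.4% of these sums. Without cpa5 the sums ran in the opposite direction, with 5759.6 in vehicle, 4656 at the low dose and 7959 at the high dose. At the high dose the FC was below 1 for cpa5 (0.586) and above 1 for the other 4. The FCs of the exocrine pancreas markers ran from 0.434 to 0.831 at that dose. Whether cpa5 marks neutrophils in these larvae was not tested. For 5 of 6 endothelial markers the sums were 2773, 3018 and 3723, with FCs at the high dose from 1.04 to 1.5, beside 1.07 for f8 and 1.04 for vwf. For 2 of 4 thrombocyte markers they were 194, 192 and 199. None of these markers was at 0 in a library, and their part in the results was not tested.

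**Figure D4:**
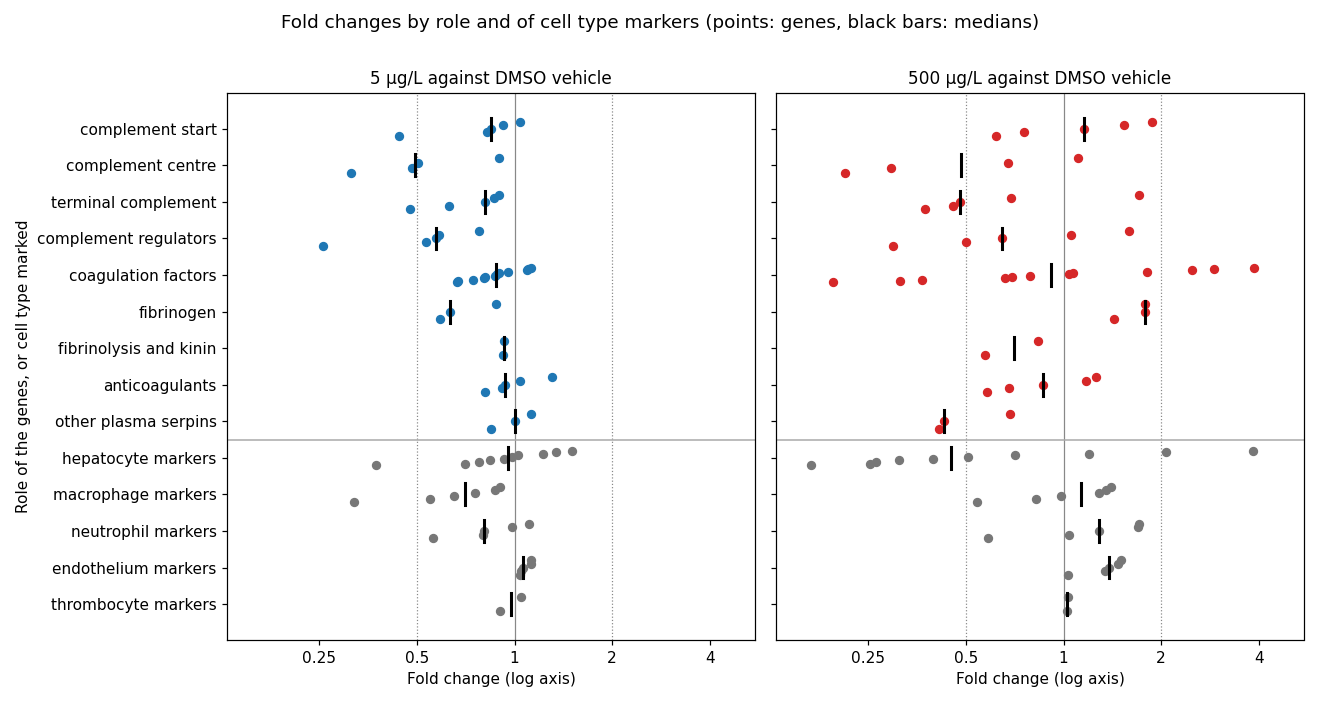
FC (log axis) against vehicle at both doses for each role of the 44 genes and, in grey, for markers of hepatocytes, macrophages, neutrophils, endothelium and thrombocytes; each point is 1 gene and black bars are medians. The 3 fibrinogen genes lie below 1 at the low dose and above 1 at the high dose, and the hepatocyte markers spread from 0.166 to 3.83 at the high dose.

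Receptors, inhibitors and modifiers of the same pathways that the name rule does not reach were taken from a list of 55 names, of which 27 were in the table. At the high dose 26 of them were tested, and 4 rose and 4 fell, with a median log2 FC of 0.14. The shares over all genes were 7.40% and 4.74%, respectively. Among those that rose, the urokinase gene plaua had 47.4 normalized counts in vehicle, 51.4 at the low dose and 124 at the high dose (FC 2.61, 95% CI 1.87 to 3.66). The protease-activated receptor genes f2r and f2rl1, which respond to thrombin and to trypsin-like proteases, had FCs of 2.04 (95% CI 1.45 to 2.89) and 3.50 (95% CI 3.02 to 4.05). The genes plaua, f2r and f2rl1 were highest at the high dose, and at the low dose their FCs were 1.08, 0.692 and 1.18, respectively.

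The 4 that fell code for plasma proteins. They were vtna, a vitronectin gene (1759, 1462 and 495 normalized counts), the alpha-2-macroglobulin-like genes a2ml (6545, 7311 and 2155) and a2ml1 (1038, 528 and 219.9), and habp2, a protease that binds hyaluronan (754, 635 and 195). Their FCs at the high dose were 0.281 (95% CI 0.252 to 0.313), 0.329 (95% CI 0.312 to 0.347), 0.212 (95% CI 0.180 to 0.248) and 0.258 (95% CI 0.217 to 0.306), respectively. At the low dose 1 of 27 fell, the complement receptor gene c5ar1 with 41, 14 and 30 reads, and 0 rose, beside 1.97% and 0.951% of all genes. Inhibitors of the tissue factor step, tfpia and tfpi2, had FCs of 1.49 and 1.76 at the high dose, short of 2-fold. The genes c5ar1, tfpia and tfpi2 were named after their values were seen.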

How the data were processed

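RNA of whole 6 dpf Tuebingen larvae was sequenced once per treatment, from poly(A)-selected RNA. The authors mapped the reads to the Zv9 zebrafish and hg19 human assemblies, scaled them by TMM and deposited 1 signal value, a normalized count, per gene and library. The counting tool, annotation and strand handling are not given in the sources used here. All 3 value columns used belonged to these samples, and 0 other sample columns were found. For 100% of entries the value was a whole number of steps (within 0.1 read, largest deviation 0.00264), so reads were recovered by division. The 3 reads taken as a floor equal 2.37, 3.28 and 3.75 normalized counts in vehicle, at the low and at the high dose. A further 10 of the 19824 mRNA entries are named by a clone prefix only and took 15.9%, 15.8% and 16.1% of the reads. They were left out.

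FCs were computed over all named mRNA genes. The threshold of 2 is the study's, and no p-value was used because each condition has 1 library. Alternatives were no filter, a minimum of 50, scaling to the total per library or to the median log ratio, a pseudocount of 5, an FC of 1.5, and 2 tests on recovered reads, that of Fisher and the exact test of edgeR for which a biological coefficient of variation (BCV) of 0.2 or 0.4 was assumed, both with Benjamini-Hochberg adjustment at 0.05. These tests compare 2 libraries, not conditions. Fisher's test counted only genes that also changed 2-fold, and the 44 genes were counted under edgeR on the same condition. At the high dose against vehicle Fisher's test called 2051 genes and edgeR 693 and 20, at the low dose 362, 5 and 0, and at the high against the low dose 1811, 594 and 29. CIs of ratios of FCs are normal approximations on log odds. Of the 44 genes, 40 matched RefSeq by accession and 4 by symbol. For 7 of them RefSeq has another symbol, among them c3a.2 for c3b, c3a.3 for c3c and c6.2 for c6. The names of the deposited data are used here.

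Every gene changed in any comparison, the 12 most abundant in vehicle, c3b, c3c, f7i and f9b were to be named, and of the partner and human match lists those changed against vehicle with at least 50 normalized counts. A gene of the partner list is not reported here. The genes and lists were chosen with earlier results of these data known. Marker lists of other tissues, some of which may express members such as f3a, f3b and serpinf1, summed, at the high dose against vehicle, to a ratio of 0.977 (muscle, 5 of 5 in the table), 0.444 (eye, 5 of 5), 0.614 (exocrine pancreas, 5 of 5), 0.517 (skin, 3 of 3) and 1.69 (erythrocytes, 4 of 4, 1 at 0 in vehicle). Without opn1sw1, which held 44.5% of the eye sum in vehicle, the eye ratio was 0.641. The method was tested on simulated data that held counting error only, so that test does not cover the spread between pools. Python 3.11.15, numpy 2.4.6, pandas 2.3.3, scipy 1.17.1, matplotlib 3.10.9, R 4.3.3 and edgeR 4.0.16 were used.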

Additional observations from a re-analysis of the deposited data

Results flagged for a closer look

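The comparisons used mRNA entries only. Outside them, a noncoding RNA entry, LOC100147916, whose human match in the table is SERPINA1, carried reads above the limit that a count of 0 allows. It had 48.2 normalized counts in vehicle (61 reads), 18.6 at the low dose (17 reads) and 83.7 at the high dose (67 reads). Its FC was 0.385 (95% CI 0.211 to 0.669) at the low dose and 1.74 (95% CI 1.21 to 2.50) at the high dose.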

How the results depend on the processing

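With 1 library per condition no replicate could be left out and no spread within a condition was measured. Of 72 values of counts and medians recomputed under the alternatives, 59 stayed within 1.5 times (counts) or within counting error (medians), 13 did not and 0 reversed. At an FC of 1.5 the genes higher and lower at the high dose were 10 and 17 of the 44, those lower at the low dose 13, and those lower at the high against the low dose 11. Over all genes these counts were 3021 and 2638 of 17758, 1025 of 17670 and 2277 of 17707, respectively. With edgeR at an assumed BCV of 0.2, 7 genes were lower at the high dose, 0 at the low dose, and 5 were higher and 2 lower at the high against the low dose. Over all genes the counts were 160, 4, 477 and 117 in that order. At a BCV of 0.4 each of these counts was 0 for the 44 genes, that of genes higher at the high dose included. Over all genes that setting called 20 at the high dose, 0 at the low dose and 29 between the doses. Fisher's exact test, which counted only genes that also changed 2-fold, moved none of the member counts by over 1.5 times. On that condition it could lower a count but not raise it. Scaling to the total shifted log2 FCs by -0.04 at the high dose and by -0.02 at the low dose. Of 243 FCs of named genes recomputed, 0 reversed and 7 moved beyond counting error, and the largest factor was 1.30, for cfhl1 at the low dose with a pseudocount of 5 (0.334). Over all genes, the counts changed at the high dose, at the low dose and between the doses were 2155, 516 and 2035, and 3213, 1622 and 3123 without a filter, 1587, 126 and 1403 at a minimum of 50, and 5659, 1648 and 5249 at an FC of 1.5. Depth limited cfhl1, cfhl2, cfhl3, f9a and the C1q genes most.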

Other observations

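The table also names, for 18 mRNA entries outside the name rule, a human match among the complement, coagulation and plasma serpin genes. Of the 17 tested at the high dose, 0 rose and 9 fell, with a median log2 FC of -0.98, and at the low dose 0 rose and 3 fell, with a median of -0.45. Over all genes, 7.40% rose and 4.74% fell at the high dose and 0.951% and 1.97% at the low dose, so that 0 of 17 rising is near the share of all genes at both doses. Among the 18 were hbl1, hbl3 and hbl4, which the list of receptors and inhibitors also held. A pair of factor B-like entries fell at the high dose, bfb with 942 normalized counts in vehicle, 852 at the low dose and 411 at the high dose (FC 0.436, 95% CI 0.385 to 0.493) and LOC563828 with 911, 460.2 and 249 (FC 0.273, 95% CI 0.234 to 0.318). The FC of cfb itself was 1.11.

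A C3-like entry, LOC100331492, fell at both doses, from 91 reads in vehicle to 23 and 28 (FC 0.350 and 0.486). The SERPINA10-like entry LOC100003661 had 377, 347 and 119 normalized counts, an FC of 0.315 (95% CI 0.250 to 0.393) at the high dose where serpina10a had 1.26. The F9-like entry LOC100004411 had 67, 35 and 14 reads (FC 0.330 at the high dose), where f9b had 3.87. Of the factor H-like entries, LOC100536554 fell at the high dose (FC 0.263, 95% CI 0.134 to 0.477) and LOC100536017 fell at the low dose (FC 0.475, 95% CI 0.282 to 0.773).

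The entry LOC564060, matched to SERPINA1, had 1141 normalized counts in vehicle, 337 at the low dose and 1966 at the high dose. It fell at the low dose (FC 0.295, 95% CI 0.260 to 0.334) and was at an FC of 1.72 (95% CI 1.60 to 1.85) at the high dose, where serpina1 and serpina1l both fell. The ratio between the exposed libraries was 5.84 (95% CI 5.17 to 6.62).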
